A study of Rattus norvegicus with 18 samples.

Results

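Retinol-binding protein 4 (Rbp4, NCBI gene identifier 25703) was 1 of 1483 genes with a single symbol among the 2304 clones of a spotted rat cDNA array. It was found by its symbol in the array's annotation, which gave 1 clone printed as 2 spots. Rbp4 had been selected on its log ratio between injured and control kidneys, the lowest of all clones tested, so its values for that comparison are given below as a description with no test. The arrays were hybridised with total RNA of whole kidney from 12 rats. The 6 ARF rats (named for acute renal failure) had 52 min of renal ischemia and reperfusion and then recovered for 35 days, and the 6 sham rats were operated on without it. The labels state no strain, sex or age. Pairs A to F joined 1 ARF and 1 sham rat on 2 arrays with the Cy3 and Cy5 dyes exchanged, and the 6 arrays R1 to R6 set sham rats against one another.

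Rbp4 is the plasma carrier of retinol (vitamin A). It belongs to the lipocalins, secreted proteins with a pocket for small lipophilic molecules, and circulates bound to transthyretin. The liver is its main source, and in the rat the kidney also makes its mRNA, chiefly in the last segment of the proximal tubule. Filtered Rbp4 protein is taken back up from the urine by the proximal tubule through megalin and cubilin, so its appearance in urine is a sign of tubular damage. The arrays measured mRNA in kidney tissue and not the filtered protein. In whole tissue, fewer cells that make a transcript and less transcript per cell cannot be told apart.

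Values are deposited log ratios; no source used here states the base of the logs or the sign. The 2 dye orientations of each pair correlated positively over clones (r between 0.196 and 0.58), so they were taken to run the same way. The order of channels in the labels does not settle the direction, since it is exchanged between the 2 orientations. Whether a negative value means lower or higher in ARF is thus not known, and signs, "above 0", "below 0" and "lower" refer to the deposited values. Of 4608 spots, 1586 to 2786 carried a value on an ARF-sham array and 914 to 2232 on a sham-sham array, and 947 clones had both orientations in at least 4 pairs. As a check of tissue and of naming, 15 of 19 clones for tubule markers had values on at least 10 of the 12 ARF-sham arrays. Of 8 hepatocyte plasma protein genes on the array, Ttr, Apoa1 and Serpina1 had a value on 0 of these arrays, Alb, Fgb and Fgg on 1, Apoc3 on 6 and Tf on 12. Rbp4 had values for 22 of its 24 spots there.

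In pair A, Rbp4 had a log ratio of -1.74 with sham in Cy3, from a single spot, and -1.07 with sham in Cy5. Pair F gave -1.29 and -0.97, in the same order of dyes. Pair D gave -0.64 and -0.85. These 3 pairs had the lowest values, and in A and F the array with sham in Cy3 was the lower of the 2. In pair E, Rbp4 had -0.43 with sham in Cy3 and -0.62 with sham in Cy5. Pair B gave -0.35 and -0.56. Pair C gave -0.34 and -0.52, where the array with sham in Cy5 rested on 1 spot. All 12 arrays were thus below 0, and in pairs B, C, D and E the array with sham in Cy5 was the lower.

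**Figure D1:**
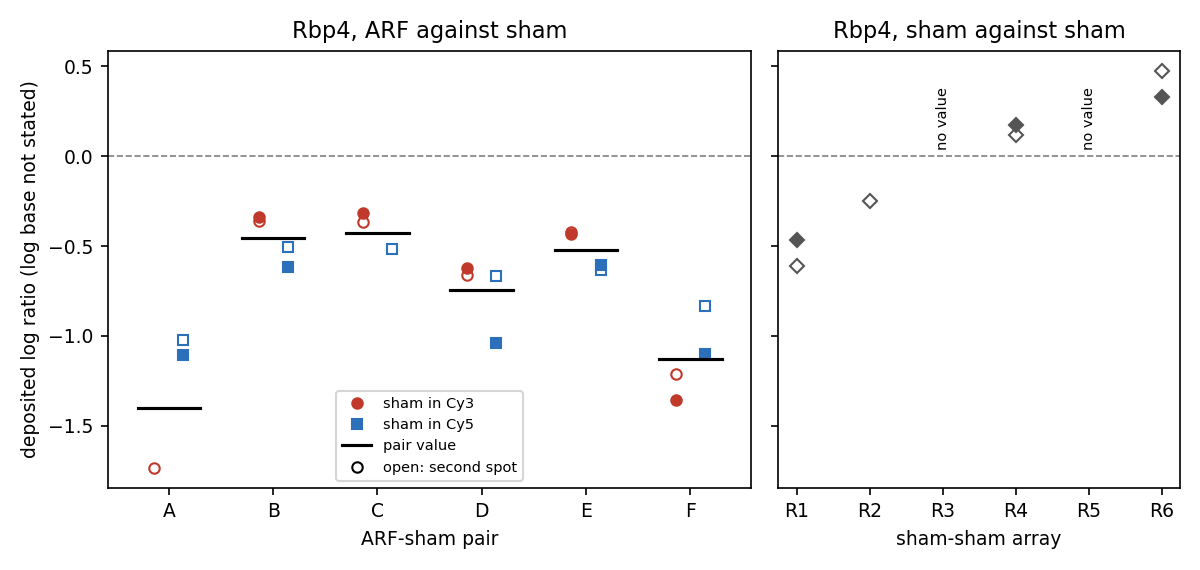
Rbp4 on every array, as deposited log ratio (vertical axis) by ARF-sham pair on the left and by sham-sham array on the right. Filled and open symbols are the 2 spots, circles are arrays with sham in Cy3, squares arrays with sham in Cy5, and bars the pair values which span -1.40 (pair A) to -0.43 (pair C); the sham-sham arrays lie on both sides of 0.

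With the 2 arrays averaged, the pair values of Rbp4 were -1.40, -0.46, -0.43, -0.75, -0.52 and -1.13 for pairs A to F. Pairs A and F lay apart from B, C and E, and D lay between them. The mean was -0.78 ± 0.40 (SD, n = 6 pairs) and the median -0.64. A mean of this size would be 1.72-fold if the logs are to base 2, 2.18-fold if they are natural and 6.04-fold if they are to base 10. Without pair A the mean was -0.66, and without pair C it was -0.85. The 2 spots, where both were present, differed by 0.0104 to 0.372 within an array, the widest gap being in pair D with sham in Cy5 (-1.04 and -0.67). Both of those spots were below every spot of pairs B and C.

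Rbp4 had the lowest mean of the 947 clones tested, followed by the small heat shock protein Cryab at -0.61. By size it ranked 3rd, since means ran up to 1.06 on the other side. For ARF against sham 9 of the 947 clones (0.95%) passed limma's test with Benjamini-Hochberg adjusted p under 0.05, 3 above 0 and 6 below. Centred on array medians, 15 passed, 8 above 0 and 7 below. The extreme position of Rbp4 was not the same in each pair. In pairs A and F, 0 of 1165 and 0 of 1120 measured clones were lower than Rbp4. In pair D 1 of 726 was lower, in B 7 of 898, in E 10 of 1347 and in C 28 of 773. Its spread was also wide: an SD of 0.40 over pairs ranked 38th of 947, where the median SD was 0.17 and the 95th percentile 0.37.

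**Figure D2:**
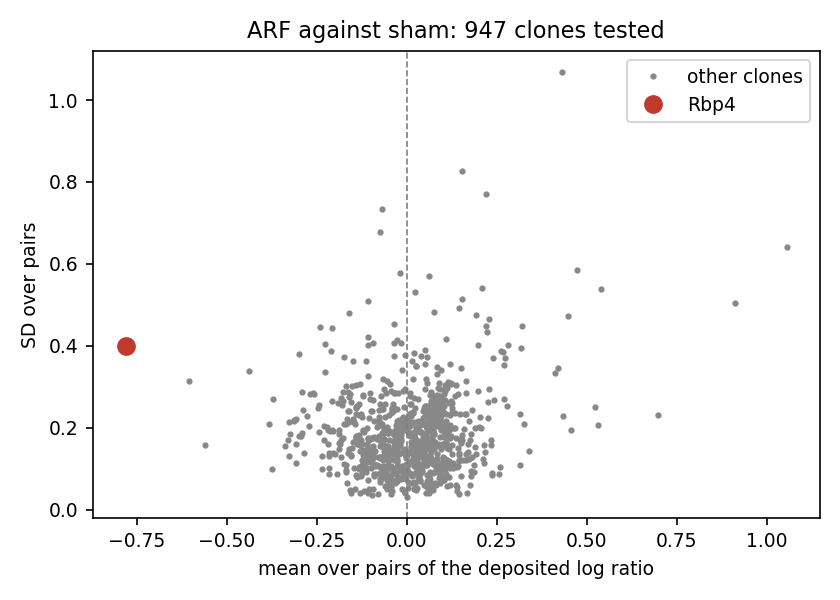
Mean over pairs of the deposited log ratio (horizontal axis) against the SD over pairs (vertical axis) for the 947 clones tested for ARF against sham. Rbp4, the red point at a mean of -0.78 and an SD of 0.40, lies at the left edge and above most clones in spread.

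The difference between the 2 dye orientations of a pair is a measure that did not enter the choice of Rbp4, and it was tested. Taken as sham in Cy3 minus sham in Cy5, divided by 2, it was -0.33, 0.10, 0.09, 0.11, 0.09 and -0.16 for pairs A to F. Pairs A and F thus stood opposite to the other 4, which lay close together. The mean dye effect was -0.017 ± 0.19 (SD, n = 6 pairs) and did not pass (limma, adjusted p = 0.87), while 152 of the 947 clones (16.1%) did. Its sign is not settled: it was 0.047 without pair A, 0.012 without pair F and 0.076 with the first spots alone, and it did not pass in any of these fits (adjusted p from 0.38 to 0.90). The mean of Rbp4 for ARF against sham was accordingly close in both orientations, -0.80 ± 0.58 with sham in Cy3 and -0.76 ± 0.23 with sham in Cy5 (SD, n = 6 each). The arrays with sham in Cy3 spread more.

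Between sham rats, Rbp4 had a value on 4 of the 6 arrays, R1, R2, R4 and R6. Their log ratios were -0.54 for sham rats F and A (R1), -0.25 for E and A (R2, 1 spot), 0.15 for D and B (R4) and 0.40 for E and D (R6), read as the first-named rat over the other, which assumes channel 2 over channel 1. The sizes averaged 0.33 ± 0.17 (SD, n = 4 arrays, which share rats). The size on R1 was above those of the ARF-sham pairs B, C and E, so that the sizes overlap. R1 has 1 dye orientation, while a pair value averages 2. By single arrays, R1 (0.54) lay below pairs B and E with sham in Cy5 (0.56 and 0.62). It lay above the other arrays of pairs B, C and E (0.34 to 0.52). Pairs A, D and F lay beyond all 4 sham-sham arrays. Of 857 clones with at least 4 sham-sham values, 32 had a larger mean size than Rbp4, and the median was 0.15. Each mean was taken over the arrays where the clone had a value, so the sets of arrays differ between clones. The rows of these columns had been deposited in another order than those of the ARF-sham columns and were put back by exchanging adjacent blocks of rows. This raised the correlation over rows between the shares of arrays with a value from -0.014 to 0.70, and the median tubule marker had values on 6 of 6 sham-sham arrays instead of 1.

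These 4 arrays join sham rats A, B, D, E and F in a chain, so each rat's Rbp4 level could be set against that of sham rat A. The ARF rat of the pair then followed from the pair value. The sham-sham arrays have 1 dye orientation each, and no second path between these rats had a value for Rbp4, so the levels are a description without a check of their error. With the pair values read as ARF over sham and the sham-sham arrays as channel 2 over channel 1, both assumed, the ARF rats A, B, D, E and F had levels of -1.40, -1.25, -1.40, -0.77 and -1.67, against 0, -0.80, -0.65, -0.25 and -0.54 for the sham rats. Here 4 of the 5 ARF rats lay below every sham rat. ARF rat E lay just above sham rat B. With only the sign of the sham-sham arrays turned, the ARF rats spanned -1.40 to 0.34 and the sham rats 0 to 0.80, and the groups overlapped more widely. Turning the sign of the pair values instead mirrors this second reading, and turning both mirrors the first. The 5 sham rats covered a range of 0.80, which turning the sign cannot change. This range is summed over several arrays of 1 dye orientation, with R2 read from 1 spot, so it is not a like measure to a pair value. The largest size on 1 sham-sham array, in 1 dye orientation, was 0.54. Set against pair values, which average 2 orientations, it was above the sizes of pairs B, C and E and below those of A, D and F.

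**Figure D3:**
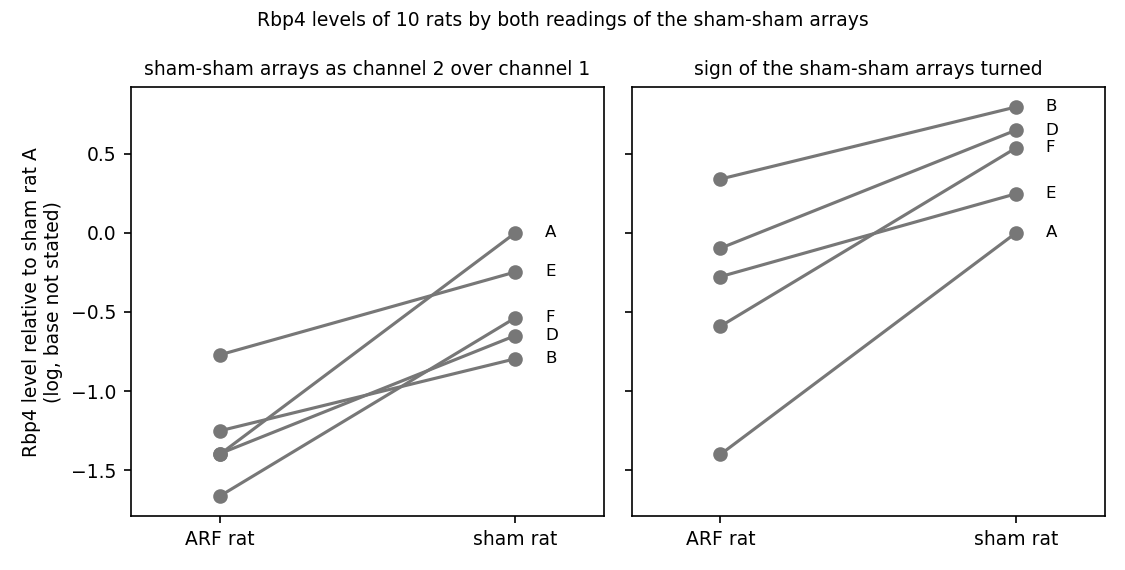
Rbp4 levels of 5 ARF rats (left in each panel) and the 5 sham rats of their pairs (right), relative to sham rat A, in log units of unstated base, with lines joining the rats of a pair. Both panels read the pair values as ARF over sham; the left panel reads the sham-sham arrays as channel 2 over channel 1 and the right panel turns their sign; the ARF rats span -1.67 to -0.77 on the left and -1.40 to 0.34 on the right.

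Other genes of vitamin A handling were set beside Rbp4. Of 80 genes listed for retinoid transport, metabolism, receptors and targets, endocytic uptake, lipocalins and fatty acid-binding proteins, 22 were on the array and 10 could be tested. The median of their means was -0.06, with 7 of 10 below 0, beside a median of 0.015 and 435 of 947 below 0 over all clones tested. Of the 10, 1 passed, below 0, and 0 above 0, beside 6 and 3 of the 947 (0.95% in both directions together). Their means ran from -0.31 to 0.26. All lay above that of Rbp4, which was given in advance, since Rbp4 had been selected as the lowest of all clones tested. Transthyretin (Ttr), the plasma partner of Rbp4, had a value on 0 of the 12 ARF-sham arrays, and Crabp2, a cytoplasmic carrier of retinoic acid, on 1. The retinol receptor Stra6 was among the genes listed but had no clone with a single symbol on the array. No other lipocalin could be tested: Lcn2, a marker of tubular injury, and Apod had a value on 0 of these arrays and the prostaglandin D synthase Ptgds on 4.

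The uptake receptors of the proximal tubule were tested in all 6 pairs. Megalin (Lrp2), the receptor that binds filtered Rbp4, had -0.07, 0.09, 0.17, -0.11, -0.24 and -0.18 in pairs A to F and a mean of -0.06 ± 0.16 (SD, adjusted p = 0.69). It went both ways. Cubilin (Cubn), its partner, had -0.46, -0.10, 0.05, -0.18, -0.42 and -0.21 and a mean of -0.22 ± 0.20 (adjusted p = 0.20), with 5 of 6 pairs below 0. Neither receptor passed. Their adaptor Dab2 had a mean of -0.02 ± 0.18 (n = 6, adjusted p = 0.87).

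Aldh1a1, an enzyme that makes retinoic acid from retinal, had 0.06, -0.15, 0.09, -0.28, -0.16 and -0.32 in pairs A to F (mean -0.13 ± 0.17, SD, adjusted p = 0.43). It was above 0 in pair A, where Rbp4 was lowest. The retinoic acid receptor Rara had a value above 0 in each of its 4 measured pairs, from 0.06 to 0.36 (mean 0.18 ± 0.13, SD, adjusted p = 0.34). Nr2f2 (COUP-TFII), an orphan nuclear receptor known to bind DNA elements shared with retinoid receptors, was above 0 in 6 of 6 pairs, from 0.11 to 0.39. Its mean of 0.26 ± 0.10 (SD) did not pass (adjusted p = 0.058), but passed in 3 of 17 alternative settings. Its adjusted p was 0.045 centred on medians, 0.10 centred per block of rows and 0.042 to 0.41 with 1 pair left out.

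The fatty acid-binding proteins are small intracellular carriers related in fold to the lipocalins. Fabp3 passed, below 0, with -0.40, -0.36, -0.40, -0.15, -0.17 and -0.36 in pairs A to F, a mean of -0.31 ± 0.12 (SD) and an adjusted p of 0.048. The call of Fabp3 held in 7 of 17 alternative settings, and in 1 of 6 fits with 1 pair left out (adjusted p from 0.036 to 0.31). In pairs B and C its values were close to those of Rbp4, and in A, D, E and F they were nearer to 0. Fabp5 had a mean of -0.12 ± 0.16 (n = 6, adjusted p = 0.43). Fabp4, a carrier of fat cells, had values from -0.91 to 0.75 in 4 pairs, and its mean of -0.07 ± 0.73 did not pass (adjusted p = 0.89). Lpl, the lipoprotein lipase that fat cells also make, had a mean of 0.0044 ± 0.095 (n = 4, adjusted p = 0.98).

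**Figure D4:**
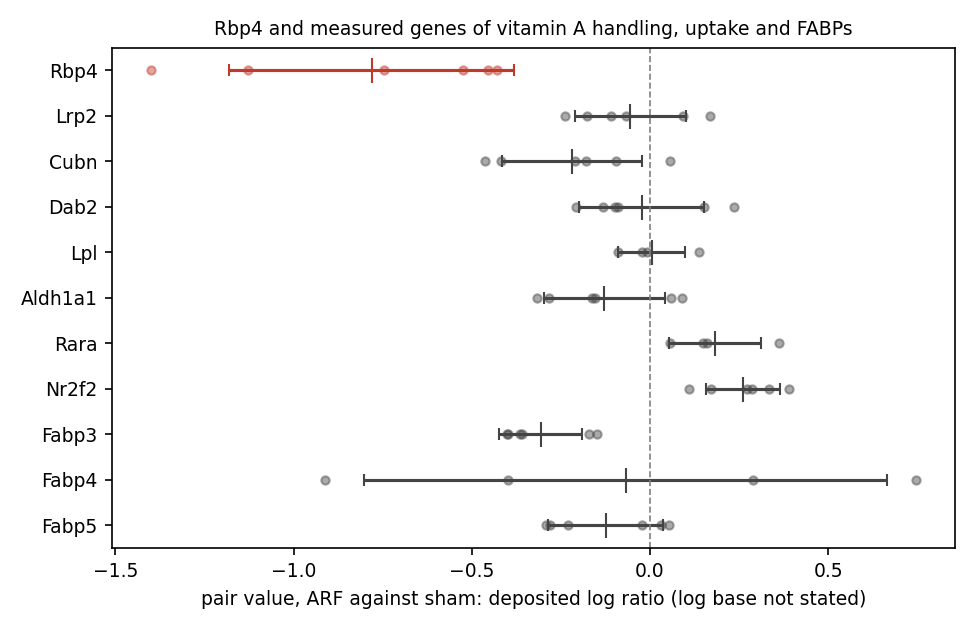
Pair values (points) with mean and SD over pairs (bars) of the deposited log ratio, ARF against sham, for Rbp4 and the 10 tested genes of uptake, vitamin A handling and fatty acid binding. The means of the 10 genes run from -0.31 to 0.26. That of Rbp4, -0.78, lies below them by its selection as the lowest of all clones tested. The 4 points of Fabp4 spread more widely than those of Rbp4, from -0.91 to 0.75.

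Rbp4 was set beside marker genes of the tubule that makes its mRNA and beside injury genes, all from lists chosen with earlier results known. Of 23 proximal tubule markers 9 could be tested, and 0 passed, beside 0.95% of all clones tested. Their means had a median of -0.14, with 7 of 9 below 0, beside 435 of 947. In each of the 6 pairs Rbp4 lay below every one of the 7 to 9 markers measured there. This place is in part built in, since Rbp4 had been selected as the lowest mean over these same pairs. The margin was small in pair D, where Gatm, an enzyme of creatine synthesis, had -0.73 and Rbp4 -0.75. It was small also in pair E, where the peroxisomal oxidase Hao2 had -0.50 and Rbp4 -0.52. In pair C the markers had a median of 0.17 and ran from -0.0059 to 0.45, while Rbp4 was at -0.43. Of the markers listed for the last proximal segment only the peptidase Ggt1 could be tested, with a mean of 0.07 ± 0.17 (SD, n = 6, adjusted p = 0.65). Pearson's r with Rbp4 over the 6 pairs was 0.70 for Ggt1. Among proximal tubule markers with values in every pair it was 0.86 for Khk, 0.68 for Anpep, 0.60 for Cubn, 0.49 for Ass1 and 0.40 for Lrp2. Of 419 clones with 1 symbol and values in every pair, 5% had an r above 0.80. This is a description in which pairs A and F weigh heavily.

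Of the 6 tested thick limb and distal tubule markers, 1 passed, below 0, beside 0.95% of all clones tested. The marker that passed was the growth factor Egf (-0.34 ± 0.16, SD, n = 6, adjusted p = 0.048), whose call held in 8 of 17 alternative settings. The list median was below 0 in 6 of 6 pairs, from -0.46 in pair F to -0.09 in pair C. The members did not all go the same way: 4 of the 6 means were below 0, beside 435 of 947 over all clones tested. Slc12a3 (0.12 ± 0.27, SD, n = 5) and Pvalb (0.12 ± 0.11, SD, n = 6) had means above 0. In pairs B and C, 1 marker was lower than Rbp4. The kallikrein Klk1b3 had -0.88 in pair B, and the salt cotransporter Slc12a1 had -0.59 in pair C, both named after their values were seen.

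The injury genes had a median above 0 in 5 of 6 pairs, where Rbp4 was below 0. The side of Rbp4 is in part built in, since it had been selected on its low mean over these same pairs. Of 12 injury genes listed 7 were tested, and 1 passed, above 0, beside 0.95% of all clones tested. The gene that passed was the calcium-binding protein S100a4 (0.70 ± 0.23, SD, n = 4, adjusted p = 0.028). That call held in 5 of 9 alternative settings. The list median was 0.79 in pair A and 0.64 in pair F, where Rbp4 was lowest, and 0.48, 0.29 and 0.03 in pairs E, B and D. In pair C the injury median was -0.52, on the same side of 0 as Rbp4, and 4 of the 7 genes there were lower than Rbp4. Rbp4 was below 0 in all 6 pairs and nearest to 0 in pair C (-0.43). Over the 6 pairs, Pearson's r with Rbp4 was -0.80 for Tmsb10, -0.78 for Clu, -0.76 for Vim, -0.72 for Spp1 and -0.58 for Anxa2. These r are a description in which pairs A and F weigh heavily. Of 419 clones with 1 symbol and values in every pair, 5% had an r below -0.80. Whether the amount of any cell type has a part in the Rbp4 values was not tested.

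**Figure D5:**
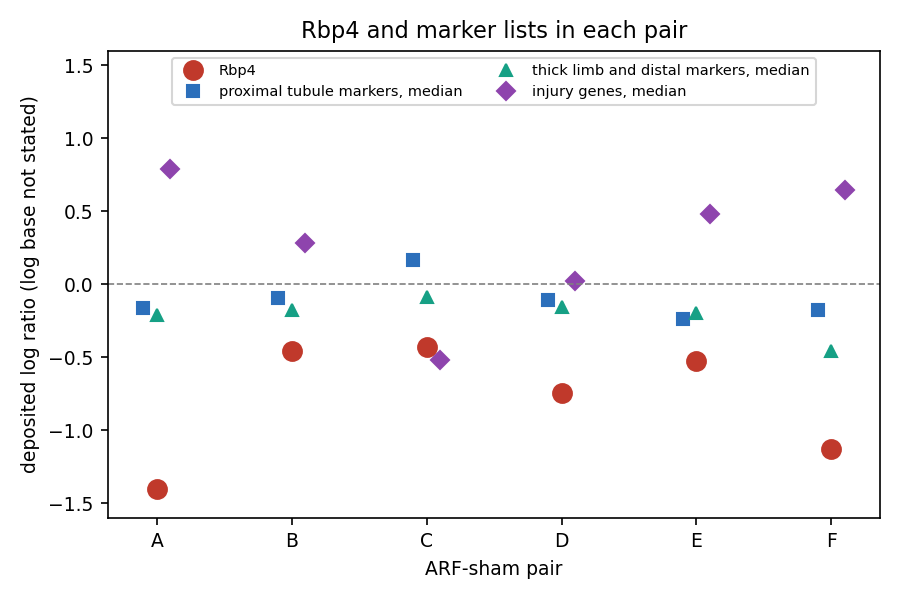
Deposited log ratio (vertical axis) by ARF-sham pair for Rbp4 and for the medians of the proximal tubule, thick limb and distal, and injury lists. Rbp4, selected on its low mean over these pairs, is below 0 in all 6 and below both tubule medians in each. The injury median spans 0.79 (pair A) to -0.52 (pair C).

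Likeness to Rbp4 was measured as Pearson's r over the 6 pair values, for 419 other clones with 1 symbol and values in every pair, as a description. The points share arrays and the 2 pairs A and F weigh heavily. The most alike were the receptor kinase Tyro3 (r = 0.97), the branched-chain keto acid dehydrogenase subunit Bckdhb (0.96), the reductase Cyb5r3 (0.96), the cytochrome oxidase subunit Cox6a1 (0.94) and the cytochrome P450 Cyp2d4 (0.94). Without pairs A and F, over 4 pairs, r was 0.96 for Cox6a1, 0.94 for Cyb5r3, 0.69 for Tyro3, 0.47 for Cyp2d4 and 0.38 for Bckdhb. These genes share the pattern over pairs and not the level of Rbp4: their means ran from -0.12 to 0.06, and 0 of the 5 passed limma's test for ARF against sham (adjusted p from 0.40 to 0.91). Cyp2d4 had the widest range, -0.49 (pair A) to 0.49 (pair C). The least alike were the cargo receptor Tmed10 (r = -0.97), the LIM protein Csrp1 (-0.95), the class I light chain B2m (-0.93), the ribosomal protein Rpl22 (-0.88) and the vesicle GTPase Rab11a (-0.88). For these r was between -0.77 and -0.21 without pairs A and F. Over all 419 clones the median r was 0.033, with 5% above 0.80 and 5% below -0.80.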

How the data were processed

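Per the labels, the authors read the arrays with ImaGene 4.1, judged spots and adjusted weak signals by a method they cite, and deposited normalized logs. These were treated as a deposited score: a log ratio of the 2 channels with base and direction not given in the sources used here. Each array had a mean of 0, and 57.07% of cells were empty. The members and gene lists were chosen with earlier results of these data known. Spots 1152 rows apart were averaged, then the 2 dye orientations of a pair, whose rats the labels match by letter. Symbols were those of GEO's annotation of the array, brought up to date through RefSeq's GRCr8 table (1483 of 1489 clones with 1 symbol matched). The exchange of blocks in the sham-sham columns was chosen after the values were seen. Clones with both orientations in at least 4 pairs were tested against 0 with limma 3.58.1 in R 4.3.3 (intercept, eBayes, two-sided), adjusted by Benjamini and Hochberg over all 947, threshold 0.05. The dye effect was tested in the same way. The fit was tested on simulated data drawn with the same SD for every clone. In the deposited values the SD differed between clones, so the simulation does not bear on that spread. Genes named were Rbp4, tested genes of the vitamin A, uptake, lipocalin and FABP lists, and the 5 genes most and the 5 least like Rbp4; the others were named after their values were seen. Alternatives were other centring, single spots, single orientations, pairs with 1 array, all 6 pairs required, limma's trend and robust options, other handling of pairing and leaving out each pair. The number of arrays limits the precision.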

Additional observations from a re-analysis of the deposited data

How the results depend on the processing

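The mean of Rbp4 for ARF against sham, -0.78 as reported, was -0.76 centred on array medians and -0.78 centred per block of rows. It was -0.77 with the first spot (n = 4 pairs) and -0.75 with the second. With 1 pair left out it ran from -0.85 to -0.66. Its sign could not turn there, since all 6 pair values were below 0 and Rbp4 had been selected on them. Rbp4 had no value without the replicate block, since sham rat C was not joined to the others. Its size between sham rats was 0.27 to 0.40 with 1 array left out and 0.31 with the rows as deposited, where the values belong to another clone. The dye effect of Rbp4 turned to 0.076 with the first spots and ran from -0.041 to 0.047 with 1 pair left out; it passed under no alternative.

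For ARF against sham, the count of clones that passed, 9 as reported, depended on the processing. It was 42 with the 12 arrays fitted with the pair as a replicate block (the 2 arrays of a pair taken to correlate at 0.29), which treats repeat arrays of 1 pair of rats partly as replicates, and 2 of 421 with no replicate block, on 12 rat levels. It was 15 centred on medians, 15 with the second spot, 28 with sham in Cy3 only, 5 centred per block and 5 with pairs of at least 1 array kept. With limma's trend and robust options it was 0 (119 at an unadjusted p under 0.05). With 1 pair left out it ran from 0 to 19, being 0 without pair E (68 unadjusted) or pair F (59). The cause was not tested. Empty cells limit the tests to genes above the authors' spot filter.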
